A study of Rattus norvegicus with 36 samples.

Results

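The glucocorticoid receptor (GR) was mapped by ChIP-seq in rat hippocampus, and the regions described here are those at which a GR peak was called almost only after corticosterone and at which no region bound by phosphorylated CREB (pCREB) was listed. A region was a member if it was in the deposited GR list, overlapped no region of the pCREB list by a single base, lay on chromosomes 1 to 20 or X, and had a peak call in at most 1 of the 8 GR libraries from vehicle rats. Members were thus chosen by measured values, the peak calls in GR and pCREB libraries. This gave 533 members among 5307 GR regions, or 10.04%. They were 50.7% of the 1052 GR regions on these chromosomes that lay outside pCREB regions. Of the members, 278 had no vehicle call and 255 had 1. The remaining 519 GR regions outside pCREB regions had calls in 2 or more vehicle libraries, and 4234 GR regions overlapped a pCREB region.

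All rats were male Sprague-Dawley rats, and the study concerned how glucocorticoids enhance memory formation. The 4 conditions were no training with vehicle, no training with corticosterone, training with vehicle, and training with corticosterone, with 4 GR libraries (A to D) each. The training task, the corticosterone dose, the sampling time and the rats' age are not stated in the labels. Chromatin from both hippocampi of a pair of rats was pooled for a library, so that a library is an average over 2 animals and over all hippocampal cell types, and changes in the number of receptor-bearing cells cannot be told apart from changes in binding per cell. The same pool supplied a GR ChIP (antibody H-300) and a pCREB ChIP (antibody to phospho-Ser133). The conditions were sequenced in lanes 5 (untrained vehicle), 6 (untrained corticosterone), 7 (trained vehicle) and 8 (trained corticosterone), so that lane and condition cannot be told apart.

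GR is a nuclear receptor that stays mainly in the cytoplasm without hormone. On binding a glucocorticoid it moves to the nucleus, where it binds DNA directly at glucocorticoid response elements or through other transcription factors. Corticosterone is the main glucocorticoid of the rat, and the hippocampus is among the brain regions richest in GR and in the related mineralocorticoid receptor. CREB is a transcription factor that is phosphorylated at serine 133 by kinases downstream of cAMP and calcium, and it has long been studied in memory formation. Lack of an overlapping pCREB region says only that no pCREB region was listed there, since pCREB reads at these positions were not analysed here.

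Reads were few. GR libraries held 55254 to 173176 reads in all GR regions, and the median member had 4 to 7 reads in a vehicle library and 8 to 18 in a corticosterone library. Summed over the 8 corticosterone libraries, a member had between 32 and 819 reads (median 101), against 10 to 139 (median 48) over the 8 vehicle libraries. The values below are CPM, that is read counts scaled by the library's total in tested GR regions and its TMM factor. Peak calls were sparse in 3 libraries, which had calls in 196 (untrained vehicle A), 666 (untrained vehicle B) and 513 (untrained corticosterone B) of all GR regions, whereas the other 13 had calls in 1966 to 4849. Since the rule reads vehicle calls, the sparse vehicle libraries bear on membership: 318 members had no call in the 6 vehicle libraries other than untrained vehicle A and B.

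A pair of libraries stood apart in level at the members. Untrained vehicle B, the shallowest library, held the highest CPM of the 8 vehicle libraries at 242 members (45.4%; 24.5% of all GR regions). Its median at the other GR regions outside pCREB regions was 309 CPM, above the 63.6 to 262 CPM of the other 15 libraries. Untrained corticosterone D held the highest CPM of the 8 corticosterone libraries at 214 members (40.2%; 18.4% of all GR regions). Untrained vehicle B thus had few calls and a high level, and whether it matches its label was not tested; if it does not, the untrained vehicle values given here are affected. Main CPM counts of corticosterone against vehicle are also given without untrained vehicle B, but not without untrained corticosterone D. Main CPM counts of trained against untrained corticosterone rats are also given without untrained corticosterone D. Some of the regions named below were refitted with each library left out, and none of these changed direction. Beyond that, the part of either library in the values of single regions was not tested.

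The deposited list holds a region only if 3 or more libraries of at least 1 condition had a call. With at most 1 vehicle call, a member could be listed only through a corticosterone condition. The listing came from trained corticosterone alone for 348 members, from untrained corticosterone alone for 98 and from both for 87. The same split was not made over all GR regions, and whether it is particular to the members was not tested. Calls at members numbered 322, 50, 247 and 376 in untrained corticosterone A to D, and 296, 468, 294 and 473 in trained corticosterone A to D. In vehicle libraries they numbered 0, 40, 33 and 41 (untrained A to D) and 58, 48, 16 and 19 (trained A to D). Calls followed the library as well as the condition. Untrained corticosterone A to D called 60.4%, 9.38%, 46.3% and 70.5% of members, and 54.1%, 9.67%, 74.0% and 58.3% of all GR regions. Trained corticosterone A to D called 55.5%, 87.8%, 55.2% and 88.7% of members, and 64.8%, 91.4%, 68.9% and 87.8% of all GR regions. Vehicle libraries, whose calls at members the rule keeps few, called 3.69% to 58.9% of all GR regions. A call in all 8 corticosterone libraries was present at 19 members, and the share over all GR regions was not computed. This count cannot exceed the 50 members called in untrained corticosterone B.

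**Figure D1:**
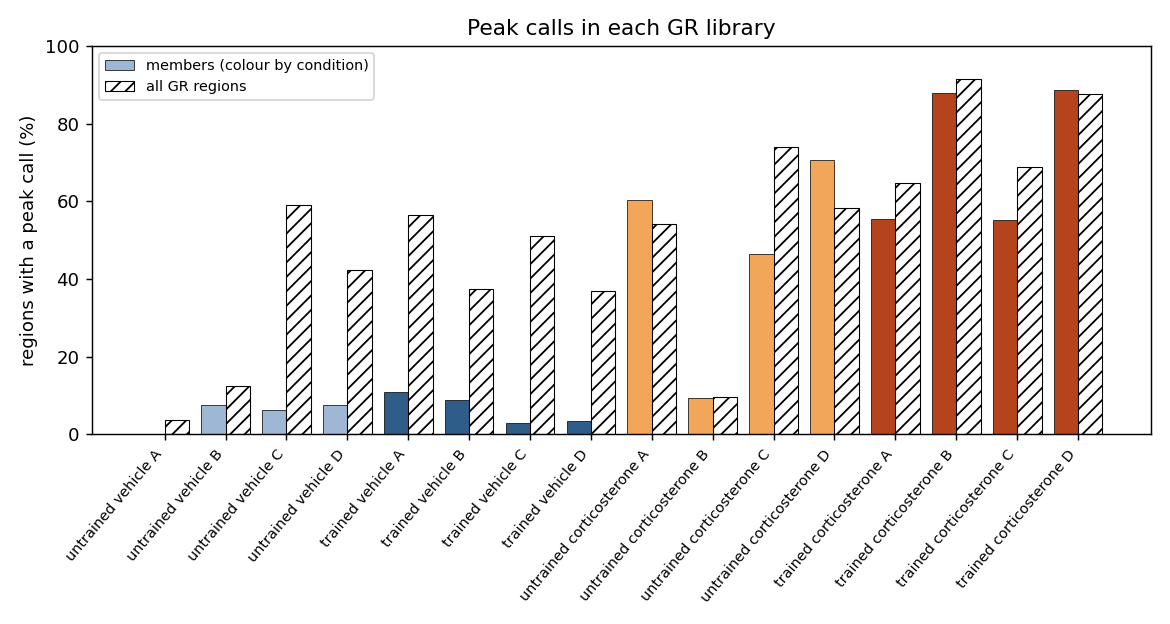
Share of regions with a peak call (%, vertical axis) in each of the 16 GR libraries, for the 533 members (filled bars, coloured by condition) and for all 5307 GR regions (hatched bars). Low vehicle bars follow from how members were chosen; untrained vehicle A, untrained vehicle B and untrained corticosterone B are also low for all GR regions.

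A missing call did not mean missing reads. In untrained corticosterone B, the 50 called members had a median of 20.5 reads and the 483 uncalled members a median of 8 and up to 33. In trained corticosterone D, the 473 called members had a median of 19 reads and the 60 uncalled ones a median of 9. Uncalled members of untrained vehicle B had a median of 95.0 CPM, above the 58.3 CPM of uncalled members in trained corticosterone A. In reads the order was the reverse, with medians of 4 in untrained vehicle B, the shallowest library, and 7 in trained corticosterone A. Most members had reads in most vehicle libraries: between 8 and 37 of the 533 had 0 reads in any 1 vehicle library, and 0 to 5 in any 1 corticosterone library.

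Members were narrow and scattered. Their median width was 286 bp (170 to 745 bp), against 327 bp for the other GR regions outside pCREB regions and 420 bp for GR regions that overlapped a pCREB region. The nearest pCREB region lay a median of 43991 bp away (59 to 2321659 bp), within 1000 bp for 13 members and within 10000 bp for 96 (18.0%). For the other GR regions outside pCREB regions the median was 40137 bp. Another GR region lay within 10000 bp of 58 members (10.9%). This share was 17.0% for the other GR regions outside pCREB regions and 12.2% for GR regions that overlapped a pCREB region. Neighbouring members within 10000 bp of each other formed 8 pairs, of which the closest was chr3:143215857-143216084 and chr3:143216334-143216669 in the rn6 build, 250 bp apart. Every chromosome examined held members, from 53 on chromosome 1 to 6 on chromosome X, where they were 23.1% of only 26 GR regions. Genes, promoters and DNA sequence at these positions were not analysed here.

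The difference between corticosterone and vehicle is given as a description only, because vehicle calls chose the members. Mean CPM over the 8 corticosterone libraries ran from 29.0 to 766 with a median of 93.9, and over the 8 vehicle libraries from 11.4 to 239 with a median of 65.8 (59.3 without untrained vehicle B). The mean was higher after corticosterone at 456 members (85.6%; 43.7% of all GR regions) and more than 2 times higher at 120 (22.5%; 2.9% of all GR regions). The mean was also higher at 69.2% of the other GR regions outside pCREB regions, and at 35.3% of those that overlapped a pCREB region. It was more than 4 times higher at 21 members, and 77 members had an equal or lower mean after corticosterone, 25 of them with no vehicle call. Without untrained vehicle B, the mean was higher after corticosterone at 465 members (87.2%; 42.6% of all GR regions). It was then more than 2 times higher at 194 members (36.4%; 5.46% of all GR regions).

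By library, the median member had 60.9, 95.0, 39.7 and 62.5 CPM in untrained vehicle A to D and 60.0, 73.4, 40.9 and 54.5 CPM in trained vehicle A to D. After corticosterone it had 103, 93.7, 69.7 and 131 CPM in untrained A to D and 91.5, 86.2, 85.3 and 97.6 CPM in trained A to D. The trained groups did not overlap, whereas in untrained rats vehicle B lay above corticosterone B and C. Members held 3.44%, 5.07%, 2.45% and 3.11% of the GR reads in untrained vehicle A to D, and 6.86%, 4.52%, 4.54% and 8.02% in untrained corticosterone A to D. In trained rats they held 2.73% to 4.09% with vehicle and 5.10% to 6.05% with corticosterone.

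**Figure D2:**
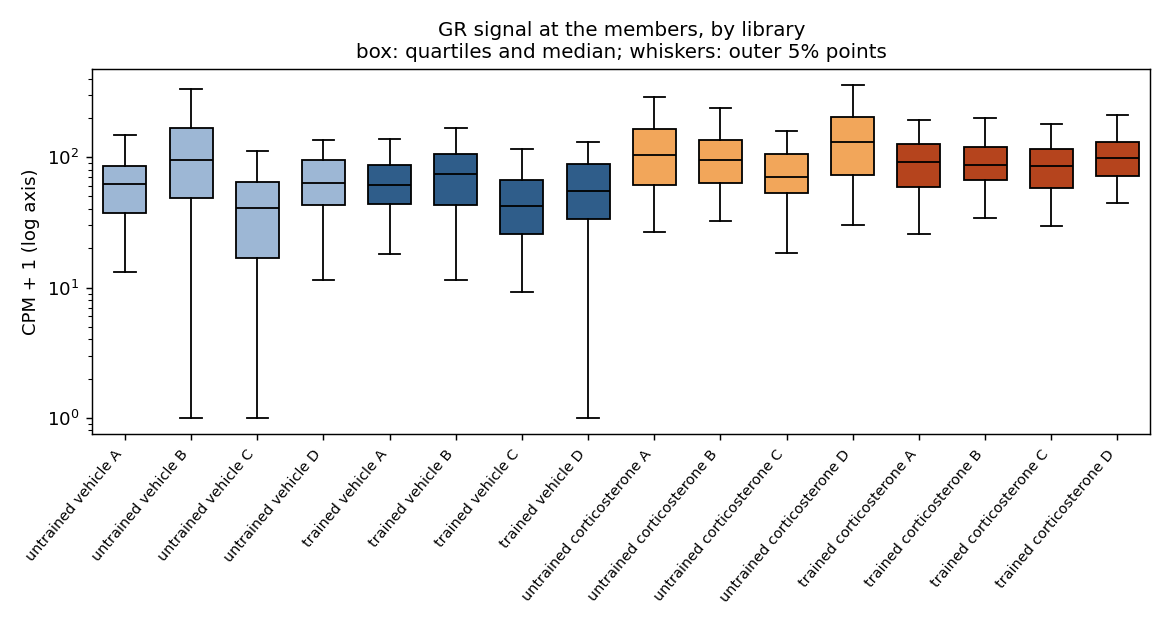
GR signal at the 533 members in each GR library, as CPM + 1 on a log axis; boxes give quartiles and the median, whiskers the outer 5% points, and colours the condition. Trained corticosterone medians (85.3 to 97.6 CPM) lie above trained vehicle medians (40.9 to 73.4 CPM), and untrained vehicle B (95.0 CPM) lies among the corticosterone libraries.

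The fitted log2 difference between corticosterone and vehicle, averaged over training, had a median of 0.60 over all 533 members when no region was filtered for low counts. It was 0.72 in untrained and 0.58 in trained rats. Over the members that could be tested, the untrained median was 0.85, and 1.21 without untrained vehicle B. Averaged over training, the median was 0.71 over tested members and 0.39 over the other tested GR regions outside pCREB regions. It was -0.11 over tested GR regions that overlapped a pCREB region. With the filter on low counts, 398 members could be tested and 135 could not. The median member had fewer reads in vehicle than in corticosterone libraries, so passing this filter could rest on the corticosterone libraries. The corticosterone differences over tested members are thus a description too. The selection also sets the direction of the fit's calls, so these are no test of the members. They numbered 60 of the 398 at an adjusted p under 0.05 (edgeR quasi-likelihood test, Benjamini-Hochberg adjustment over all tested GR regions), all higher after corticosterone, where 1.67% of all 4968 tested GR regions passed in either direction and 1.65% were higher. The count moved with single libraries: it was 158 without untrained vehicle B, 102 without untrained corticosterone C and 38 without trained corticosterone D.

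Separation of single libraries gives the same description on the CPM scale. At 15 members (2.81%) every corticosterone library was above every vehicle library (0.32% of all GR regions, 17 in number). Without untrained vehicle B there were 30 such members (5.63%; 0.81% of all GR regions). Taken within training states, all 4 corticosterone libraries lay above all 4 vehicle libraries at 32 members in untrained rats (6.0%; 1.45% of all GR regions). In trained rats they did so at 87 members (16.3%; 3.47% of all GR regions). Without untrained vehicle B the untrained count was 126 (23.6%; 7.05% of all GR regions).

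Levels on both sides of the threshold of 1 vehicle call were compared as a description. Among GR regions outside pCREB regions, those with no vehicle call had a median of 55.0 CPM in vehicle and 89.1 CPM after corticosterone. With 1 call the medians were 80.1 and 103 CPM, with 2 calls (193 regions, just outside the rule) 101 and 126 CPM, and with 3 calls 128 and 150 CPM. Without untrained vehicle B, the vehicle medians for 0 to 3 calls were 46.8, 70.8, 84.4 and 100.1 CPM. The median ratio of corticosterone to vehicle was 1.55, 1.27, 1.21 and 1.14 for 0, 1, 2 and 3 calls, and 1.16, 1.14, 1.23, 1.26 and 1.20 for 4 to 8 calls, where regions were fewer (102, 58, 27, 10 and 3). Mean CPM after corticosterone ranged from 37.7 to 766 with 1 call and from 41.9 to 595 with 2, so these ranges overlapped widely. In vehicle the mean ranged from 20.4 to 239 CPM with 1 call and from 49.1 to 366 CPM with 2, higher at both ends with 2 calls. Each limit is the value of a single region.

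**Figure D3:**
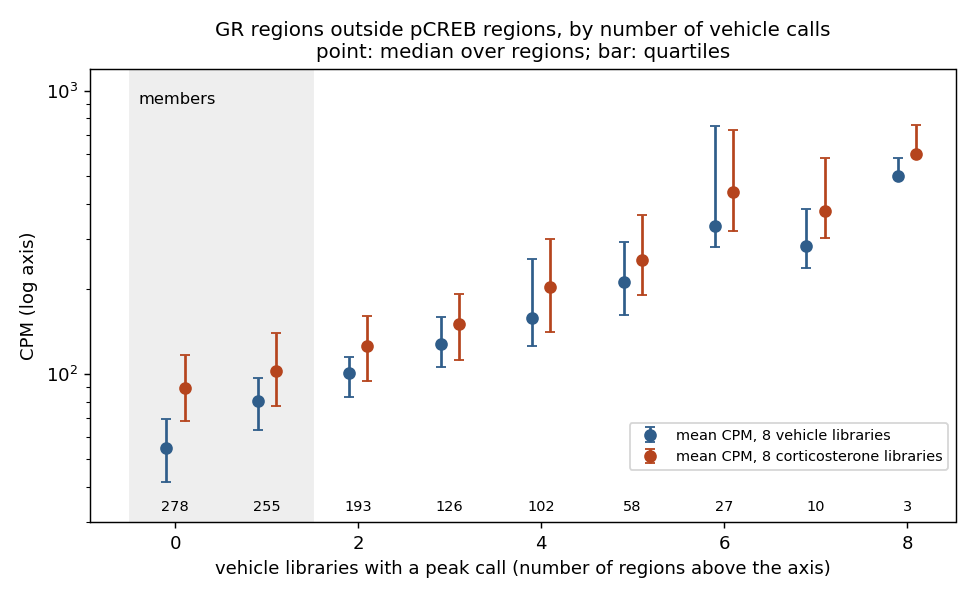
GR regions outside pCREB regions by the number of vehicle libraries with a peak call (horizontal axis; numbers of regions above it); points are medians over regions of mean CPM in 8 vehicle (blue) and 8 corticosterone (red) libraries on a log axis, bars are quartiles. From 0 to 6 calls both medians are higher with each further call and at 7 calls they are lower than at 6; 1 call (members) has 80.1 and 103 CPM and 2 calls 101 and 126 CPM.

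Just outside the threshold, chr20:7998838-7999373 had 2 vehicle calls and a mean of 595 CPM after corticosterone against 130 CPM in vehicle. The non-member chr12:1511204-1511444, also with 2 vehicle calls, had 298 CPM after corticosterone and 366 CPM in vehicle. Both profiles, higher and not higher after corticosterone, were thus present outside the rule as well as inside it.

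The member with the most signal was chr10:59884799-59885334. Untrained vehicle A to D gave 12.2, 71.2, 0 and 135 CPM there and trained vehicle A to D 42.9, 31.5, 24.5 and 43.6 CPM. Untrained corticosterone A to D gave 711, 521, 653 and 1556 CPM, and trained corticosterone A to D 624, 710, 775 and 575 CPM. All 8 corticosterone libraries were above all 8 vehicle libraries, and untrained corticosterone D alone exceeded 1000. The region was 535 bp wide, was called in all 8 corticosterone libraries and in untrained vehicle D, and lay 39382 bp from the nearest pCREB region. Its fitted log2 difference was 4.04 in untrained and 4.20 in trained rats.

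Next in rank came chr10:16942351-16942910, with no vehicle call. Vehicle libraries gave 36.6, 71.2, 31.8 and 125 CPM (untrained A to D) and 25.7, 63.0, 32.7 and 32.7 CPM (trained A to D). Corticosterone libraries gave 420, 375, 200 and 662 CPM (untrained A to D) and 283, 285, 306 and 211 CPM (trained A to D). The groups did not overlap, and the spread was wider among untrained corticosterone libraries (414 ± 190 CPM, SD, n = 4) than among trained ones (271 ± 41.2 CPM, SD, n = 4).

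Another member, chr17:5971448-5971815, also had no vehicle call and was called in all 8 corticosterone libraries. It had 8.18 to 104 CPM over the 8 vehicle libraries. It had 454, 333, 157 and 567 CPM in untrained corticosterone A to D and 233, 325, 313 and 309 CPM in trained corticosterone A to D. Again no vehicle library reached the lowest corticosterone library.

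Of the other 7 members among the 10 with the most corticosterone signal, chr1:73760445-73760846 kept its groups apart (0 to 95.0 CPM in vehicle, 122 to 386 CPM after corticosterone). So did chr2:9601212-9601728, more narrowly (47.7 to 190.0 and 200.3 to 465 CPM). At chr16:48053796-48054088 the ranges met: 63.6 to 157 CPM in vehicle libraries and 128 to 545 CPM in corticosterone libraries. The same held for chr17:40485671-40486256 (23.8 to 166 and 113 to 463 CPM) and for chr6:76175910-76176613 (71.5 to 285 and 206 to 553 CPM), the latter 2345 bp from a pCREB region. The region chr13:52169413-52169878 reached 309 CPM in untrained vehicle B, against 199 to 407 CPM after corticosterone. In reads these were 13 in untrained vehicle B and 25 to 56 after corticosterone. The widest member, chr7:50212311-50213056 (745 bp), had its highest value in a vehicle library, 926 CPM in untrained vehicle B, against 78.4 to 494 CPM after corticosterone.

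**Figure D4:**
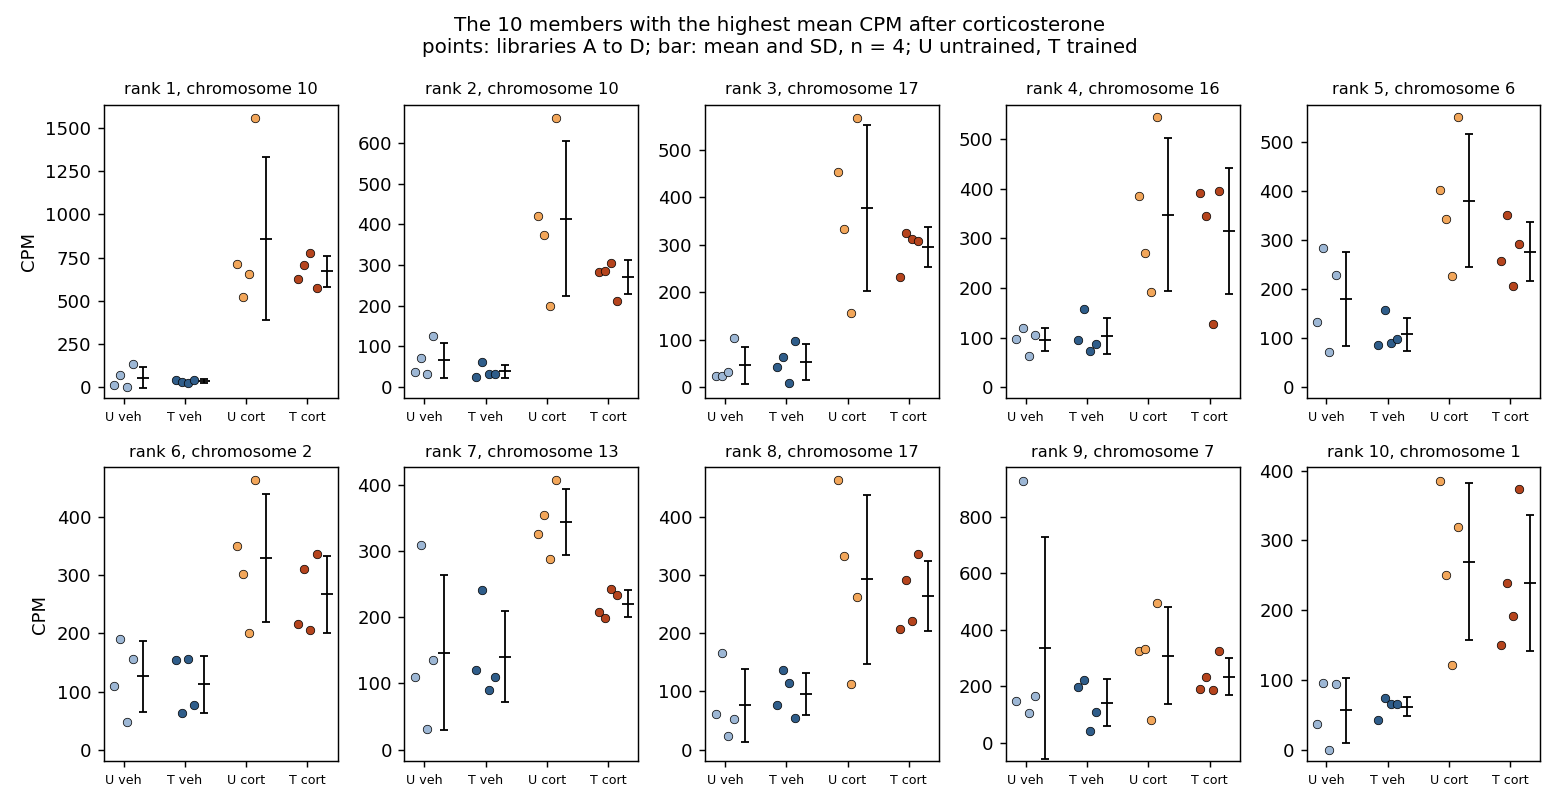
CPM in every GR library at the 10 members with the highest mean CPM after corticosterone, 1 panel each with its own linear axis; points are libraries A to D of untrained vehicle, trained vehicle, untrained corticosterone and trained corticosterone, bars mean and SD (n = 4). Rank 1 has no overlap (0 to 135 CPM in vehicle, 521 to 1556 CPM after corticosterone), whereas at rank 9 untrained vehicle B (926 CPM) exceeds every corticosterone library.

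Ranking the well-covered members by fitted log2 difference instead of level added 4 regions. At chr7:59260978-59261383 the difference was 2.68, with 0 to 93.8 CPM in vehicle libraries and 87.1 to 596 CPM in corticosterone libraries. It was 2.30 at chr3:2251775-2252102, where vehicle libraries gave 0 to 119 CPM and corticosterone libraries 133 to 386 CPM, without overlap. At chr9:19527597-19527934 (2.04) and chr17:55203186-55203543 (1.80), untrained vehicle B, at 214 CPM in both, exceeded several corticosterone libraries. It did so only after scaling: it held 9 reads at each, and the corticosterone libraries 14 to 54 and 15 to 53 reads.

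Whether training altered GR signal at these regions in rats given corticosterone is a comparison that vehicle calls did not enter, although the list itself rests on calls in the corticosterone libraries. No member passed the test: 0 of 398 had an adjusted p under 0.05, and 0.0% of the 4968 tested regions did (edgeR quasi-likelihood test; DESeq2 also called 0). At an unadjusted p under 0.05 there were 19 members by edgeR, 4 higher and 15 lower in trained rats, and 16 by DESeq2. Of all tested regions 3.7% had such a p by edgeR, 1.97% higher and 1.73% lower. The lowest adjusted p of a member was 0.966. The median standard error of a member's log2 difference was 0.43, so that differences of this size were not detectable in single regions at this depth.

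The median log2 difference, trained minus untrained corticosterone, was -0.19 over all 533 members without a filter. Among tested regions it was -0.24 over members and -0.02 over all GR regions. It was lower, -0.41, over the other GR regions outside pCREB regions, and 0.04 over GR regions that overlapped a pCREB region. A lower level in trained rats was thus not particular to the members. The mean CPM was higher in trained rats at 190 members (35.6%; 49.8% of all GR regions). Leaving out untrained corticosterone D brought this to 267 members (50.1%; 50.7% of all GR regions). Over the tested members the median was -0.24, and it was -0.02 without untrained corticosterone D and -0.42 without untrained corticosterone C. The members' median in this comparison therefore moved with single untrained corticosterone libraries.

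Listing rests on calls in these same libraries, so levels by listing condition are a description. Members listed through untrained corticosterone alone had a median of 110 CPM in untrained and 73.2 CPM in trained corticosterone rats, and 2 of 98 had the higher mean in trained rats. Those listed through trained corticosterone alone had nearly equal medians, 86.6 CPM in untrained and 87.8 CPM in trained corticosterone rats, with 184 of 348 higher in trained rats. Those listed through both conditions had 171 and 129 CPM, with 4 of 87 higher in trained rats. Without untrained corticosterone D, the untrained medians were 101 CPM (untrained listing), 77.6 CPM (trained listing) and 145 CPM (both), and 2, 244 and 21 members were higher in trained rats.

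The smallest p for training belonged to chr11:77467099-77467439. It had 274, 292, 192 and 356 CPM in untrained corticosterone A to D and 166, 146, 135 and 136 CPM in trained corticosterone A to D, with 32.7 to 94.3 CPM in the vehicle libraries. The corticosterone groups did not overlap; the log2 difference was -0.94 (SE 0.27), with an unadjusted p of 0.00178 and an adjusted p of 0.966 by edgeR. All 4 untrained libraries exceeding all 4 trained ones occurred at 24 members (4.5%; 1.85% of all GR regions), and the reverse at 9 (1.69%; 2.07% of all GR regions). Without untrained corticosterone D these were 28 (5.25%; 2.81% of all GR regions) and 17 (3.19%; 3.47% of all GR regions).

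A low-signal region, chr9:44041713-44041971, had 120, 146, 105 and 138 CPM in untrained corticosterone A to D and 24.97, 59.7, 42.7 and 43.4 CPM in trained corticosterone A to D, a log2 difference of -1.53. In reads, trained corticosterone A to D held 3, 9, 6 and 8 there. Trained corticosterone lay within the range of trained vehicle (10.9 to 83.9 CPM). Untrained vehicle B had 214 CPM from 9 reads, above all 4 untrained corticosterone libraries. At chr1:124832205-124832688 the difference was -1.04, with 200.3 to 414 CPM in untrained and 103 to 199 CPM in trained corticosterone rats. At chr7:57680823-57681116 it was -0.76, with 113 to 146 and 56.9 to 126 CPM. The 1 region of these 5 with the opposite sign, chr4:114984528-114984807, had 0 to 61.0 CPM in untrained and 66.6 to 135 CPM in trained corticosterone rats, a log2 difference of 1.36. None of these 4 passed, each with an adjusted p of 0.966 by edgeR.

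**Figure D5:**
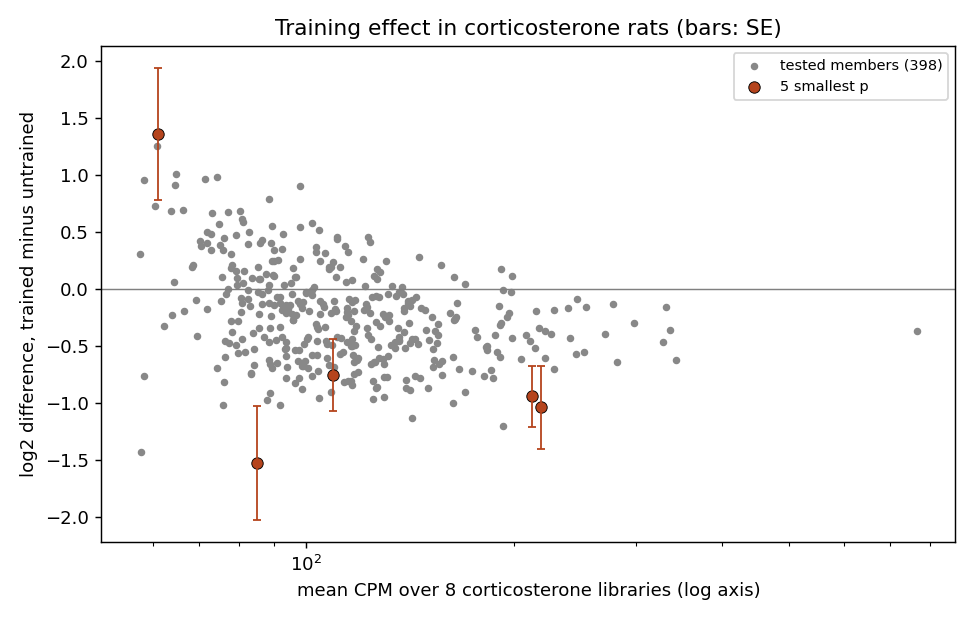
Fitted log2 difference between trained and untrained corticosterone rats (vertical axis) against mean CPM over the 8 corticosterone libraries (log axis) for the 398 tested members; the 5 with the smallest p are in red with their SE. No member passed the test, and the named differences run from -1.53 to 1.36.

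The interaction, which asks whether the corticosterone difference itself differed between trained and untrained rats, also reads the vehicle libraries that chose the members, and its counts are therefore a description. None of the 398 tested members had an adjusted p under 0.05 (0 of 398, with 0.0% of all tested regions; edgeR and DESeq2 both called 0). At an unadjusted p under 0.05 there were 8 members by each tool, of which edgeR placed 2 higher and 6 lower in trained rats. Of all tested regions 3.7% had such a p by edgeR, 2.07% higher and 1.63% lower. A member's interaction had a median standard error of 0.72 (log2).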

How the data were processed

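The deposited table holds raw read counts per region for GR and pCREB lists, per the file headers and the values, with the names of the peak calls merged into each region. Build rn6, HTSeq 0.6.1-1, bedtools 2.26.0, MACS2 2.1.1.20160309 and BWA 0.7.10 were named in the submitters' processing notes, with no parameters. Coordinates are printed as deposited.

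Counts of all 5307 GR regions in 16 libraries were fitted with edgeR 4.0.16 in R 4.3.3: filterByExpr by condition (minimum count 10, minimum total 15), TMM, 1 model with 4 groups and no covariate, robust quasi-likelihood test, Benjamini-Hochberg adjustment over 4968 tested regions. Each standard error is the absolute fold change (log2) over the root of F. DESeq2 1.42.0 was an alternative. CPM are computed from the counts here. Library pairs within a condition differed beyond counting noise (lowest chi-square per degree of freedom 1.79 over 24 pairs). Replicates are separate pools.

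Regions named were the 10 members with the highest corticosterone CPM, the 10 with the largest corticosterone difference among those above the median level of tested regions, the 5 with the smallest p for training, and examples at the threshold. Members, lists and alternatives were chosen with earlier results of these data known. Inputs, gene annotation and DNA sequence were not analysed here.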

Additional observations from a re-analysis of the deposited data

Results flagged for a closer look

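Groups of 4 libraries were examined at 19 named members (76 groups) and for 3 measures per library (12 groups). In 3 of these 88 groups, 1 library lay far from the other 3 (by Dixon's ratio of gap to range); chance gives about 1 in 20 groups. At chr17:5971448-5971815, untrained vehicle D had 104.2 CPM and the other untrained vehicle libraries 23.75 to 31.78 CPM. At chr7:50212311-50213056, untrained vehicle B had 926.2 CPM and the others 103.3 to 166.7 CPM. At chr7:57680823-57681116, untrained corticosterone C had 113.2 CPM, below the 145.4 to 145.8 CPM of the others.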

How the results depend on the processing

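No member passed the test for training in corticosterone rats or for the interaction under any setting run: other scaling (library totals, TMM from regions that overlap a pCREB region, DESeq2), no filter, a stricter p, other membership rules, and each library left out. The count of members under the threshold for corticosterone, which the selection shapes and which is no test of them, was 60; it was 36 at an adjusted p under 0.01 and 109 without the 3 libraries with few peak calls, an alternative chosen after seeing the data. With 1 library left out in turn the count ran from 38 to 158. The median log2 difference in untrained rats, 0.848 over tested members, was 1.326 without those 3 libraries. With the letter A to D as a replicate block, the counts were 0 for training, 0 for the interaction and 78 for corticosterone. Of 24 same-letter pairs of libraries in different conditions, 11 correlated above 0.1, and 5 of 16 libraries correlated best with their own letter. The median correlation was 0.066 for same-letter pairs and -0.057 for the 72 different-letter pairs. The labels give only the letter, and whether equal letters mark matched pools was not tested. No single region followed across the settings changed direction. Alternatives on motifs and annotation were not run. The depth of 8 to 18 reads at the median member in a corticosterone library limits what single regions can show.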
